A study of Mus musculus with 6 samples.

Results

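The 10 genes Vcam1, Icam1, Socs3, Ptgs2, Edn1, C3, Saa3, Lcn2, Mmp3 and Mmp9 encode adhesion molecules, signal regulators, secreted mediators, acute-phase proteins and matrix-degrading enzymes that are widely used as readouts of NF-κB activity. They were picked by gene name in the deposited count table, and all 10 were among its 54532 genes. The table came from RNA-seq of MLE12 cells, an immortalized line of mouse alveolar epithelial cells that carries the strain label C57BL/6J. In the Ctrl shRNA group, 3 samples received 1 control lentivirus at an MOI (multiplicity of infection, the viral dose per cell) of 50. The paper's methods call it both an empty vector and a negative control (shCtrl), and list a sequence for it. In the Idh3α shRNA + Slc25a1 shRNA group (knockdown group below), 3 samples received 2 lentiviruses together, each at an MOI of 50. The first silences Idh3a, which encodes the catalytic subunit of mitochondrial isocitrate dehydrogenase, and the second silences Slc25a1, which encodes the mitochondrial citrate carrier. In both groups the medium was replaced after 16 h and culture went on for 80 h. The comparison addresses which transcripts differ when the use of citrate in mitochondria and its export are lowered together. The groups also differ in the number of lentiviruses, and its part in any difference cannot be told apart from that of the silencing. All samples come from 1 cell line, and since the labels do not state that replicates are separate cultures, p-values measure the spread between these samples, which may be technical.

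NF-κB is a family of transcription factors that inhibitory IκB proteins hold in the cytoplasm until signals from receptors for TNF, IL-1 or bacterial products release them. In the nucleus the dimers bind κB motifs and switch on genes for adhesion molecules, chemokines, acute-phase proteins and their own inhibitors. In the lung, alveolar epithelial cells are a known source of such products during injury, and other factors, among them C/EBPβ, STAT3 and AP-1, act on many of the same promoters.

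The total count per sample lay between 27273502 and 28535653. Ctrl shRNA replicate 2 stood apart from the other libraries. It had counts on 16681 genes against 19902 to 23147 elsewhere, 27.2% of its counts fell on the top 100 genes compared with 12.6% to 12.9%, and 6.49% of its counts were mitochondrially encoded against 1.57% to 1.80%. Its TMM factor, which corrects a library's size for such imbalance, was 0.711 against 1.05 to 1.09, so it alone had its values scaled up relative to its total count, while the other samples were scaled down. The values of the 10 genes are therefore given with and without it, and where a value is given once it comes from all 6 libraries. Idh3a was at 79.8, 137 and 93.0 CPM (counts per 1000000 of the library size after TMM scaling) in Ctrl shRNA replicates 1 to 3 and at 58.5, 57.9 and 55.5 CPM in the knockdown samples. Slc25a1 was at 103, 98.7 and 108 CPM against 68.9, 69.6 and 63.0 CPM. Both targets were lower in each knockdown sample than in each Ctrl shRNA sample. In edgeR (quasi-likelihood F-test, p-values adjusted by the Benjamini-Hochberg method over all genes tested) neither passed with all 6 libraries (log2 fold change -0.85 ± 0.20 (SE), adjusted p = 0.254 for Idh3a, and -0.62 ± 0.08, adjusted p = 0.104 for Slc25a1), and both passed without Ctrl shRNA replicate 2 (-0.60, adjusted p = 0.0142, and -0.66, adjusted p = 0.00649). Of 13 type 2 and lung epithelial markers, 9 passed the count filter, with Krt19, Krt8 and Nkx2-1 the most abundant, while the surfactant gene Sftpd had no count in any sample. Sftpc, the surfactant gene that defines type 2 cells, was at 44.1, 97.3 and 50.9 CPM in the Ctrl shRNA samples and 35.9, 28.5 and 27.2 CPM in the knockdown samples, and Nkx2-1, a lung epithelial transcription factor, at 343, 324 and 341 CPM against 302, 299 and 277 CPM. Both were lower in each knockdown sample, as was Epcam. Napsa was higher in each, at 0.678, 0.759 and 0.453 CPM in the Ctrl shRNA samples against 1.38, 1.25 and 1.18 CPM. Cdh1, the epithelial cadherin gene, was also higher in each, at 74.9, 68.4 and 71.4 CPM against 83.8, 75.7 and 77.2 CPM. The summed level of the 13 markers overlapped between the groups, at 1583 to 1709 CPM against 1647 to 1769 CPM. The part of these markers in the values below was not tested.

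Promoter sequences from RefSeq on GRCm38.p6, running from 250 bases before to 50 bases after the annotated transcription start, were found for 8 of the 10 genes (all but Vcam1 and Mmp9). They were searched on both strands for κB motifs of 10 bases (GGG followed after 3 free bases by TTCC, and a stricter form of it with T as the last of these 3), a STAT motif (TTCNNNGAA), an AP-1 motif (TGANTCA) and a C/EBP motif (TTGCNNAA). Neither κB motif occurred in the 8 windows, while 5.56% of all 32851 windows held the first and 1.63% the stricter form. A relaxed κB motif, GGNNNTTCC, which every match of the other 2 also fits and was added after that result was seen, occurred in the windows of Icam1 and Saa3 and in 18.5% of all windows. The C/EBP motif occurred in 5 of the 8 windows (Ptgs2, Lcn2, Saa3, Mmp3 and C3) and in 10.8% of all windows, the STAT motif in 2 (Icam1 and Socs3) and in 8.30% of all, and the AP-1 motif in 1 (Mmp3) and in 7.81% of all. A match shows only that these letters occur in the window. The sequences below, read 5′ to 3′ on the strand of the gene, lie before the deposited gene start of Icam1 (chr9:21015690-21015939, plus strand), Saa3 (chr7:46715701-46715926, minus strand) and C3 (chr17:57228137-57228386, minus strand). They are shown because these 3 genes had the largest fitted log2 differences of those tested, and capitals mark the motif matches.
Icam1: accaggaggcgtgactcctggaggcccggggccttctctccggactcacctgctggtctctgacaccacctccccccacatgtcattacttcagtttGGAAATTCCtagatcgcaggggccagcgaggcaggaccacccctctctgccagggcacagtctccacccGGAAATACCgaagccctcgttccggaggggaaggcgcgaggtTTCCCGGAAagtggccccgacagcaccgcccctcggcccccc
Saa3: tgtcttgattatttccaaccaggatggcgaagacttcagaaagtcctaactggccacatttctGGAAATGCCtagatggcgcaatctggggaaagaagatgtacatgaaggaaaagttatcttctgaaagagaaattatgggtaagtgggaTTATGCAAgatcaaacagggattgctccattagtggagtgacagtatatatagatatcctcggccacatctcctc
C3: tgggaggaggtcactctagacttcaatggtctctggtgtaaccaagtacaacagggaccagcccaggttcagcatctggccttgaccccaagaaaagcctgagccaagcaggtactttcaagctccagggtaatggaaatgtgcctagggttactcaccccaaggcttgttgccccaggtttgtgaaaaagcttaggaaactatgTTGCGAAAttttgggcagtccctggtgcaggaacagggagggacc
In Icam1 the capitals mark, from 5′ to 3′, a relaxed κB match at -153 to -145 from the RefSeq start, one on the opposite strand at -84 to -76, and the STAT match at -42 to -34. In Saa3 they mark a relaxed κB match (-187 to -179) and a C/EBP match (-99 to -92), both on the opposite strand, and in C3 a C/EBP match (-45 to -38). The C/EBP match (-216 to -209) of Lcn2, a gene with no count in the Ctrl shRNA group, and the STAT match (-154 to -146) of Socs3, a gene whose groups overlapped, are shown with 10 bases on either side, and both lie inside the deposited gene span.
Lcn2: gcccttcctgTTGCTCAAccttgcacag
Socs3: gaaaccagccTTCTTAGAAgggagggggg

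Vcam1 and Icam1 are cell surface ligands that leukocytes hold on to through integrins. Vcam1 (ENSMUSG00000027962, GRCm38 chr3:116109949-116129688, minus strand) was by far the most abundant of the 10 genes and made up 83.4% to 85.6% of their summed counts in every sample. Its raw counts were 16385, 12245 and 15743 in the Ctrl shRNA samples and 21085, 21060 and 21273 in the knockdown samples. On the CPM scale these were 529, 620 and 549 against 709, 694 and 717. The knockdown samples lay close together and above all Ctrl shRNA samples on both scales, and Ctrl shRNA replicate 2 was the lowest sample by raw count and the highest of its group by CPM. Mean levels were 566 ± 47.6 CPM (SD, n = 3) and 707 ± 11.7 CPM (SD, n = 3), and the Ctrl shRNA mean without replicate 2 was 539 ± 13.8 CPM (SD, n = 2). With all 6 libraries the log2 fold change was 0.32 ± 0.10 (SE), a 1.25-fold difference that did not pass (edgeR's quasi-likelihood test, unadjusted p = 0.0190, Benjamini-Hochberg adjusted p = 0.330). Vcam1 rose when Ctrl shRNA replicate 2 was left out (log2 fold change 0.38 ± 0.06, edgeR adjusted p = 0.0276).

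Icam1 (ENSMUSG00000037405, chr9:21015985-21028817, plus strand) had raw counts of 1066, 585 and 805 in the Ctrl shRNA samples and 1367, 1280 and 1346 in the knockdown samples. These correspond to 34.4, 29.6 and 28.1 CPM against 45.9, 42.2 and 45.4 CPM. The groups did not overlap on either scale, and Ctrl shRNA replicate 2, the lowest sample by raw count, lay inside the range of its group by CPM. Means were 30.7 ± 3.32 CPM (SD, n = 3) and 44.5 ± 2.02 CPM (SD, n = 3), with 31.2 ± 4.50 CPM (SD, n = 2) for Ctrl shRNA without replicate 2. The 1.45-fold difference (log2 fold change 0.54 ± 0.10) did not pass with all 6 libraries (edgeR unadjusted p = 0.00162, adjusted p = 0.185). The difference was 1.41-fold (0.50 ± 0.10) without Ctrl shRNA replicate 2 and stayed just outside the threshold (edgeR adjusted p = 0.0537). In DESeq2, an alternative count model, Icam1 rose with all 6 libraries (log2 fold change 0.52 ± 0.13, adjusted p = 0.00488) and Vcam1 was at 0.31 ± 0.11 with an adjusted p of 0.0646. Both rose in DESeq2 without Ctrl shRNA replicate 2, with adjusted p = 0.00093 for Icam1 and 1.78e-07 for Vcam1. Over 18 settings of the analysis the adjusted p ranged from 0.00093 to 0.675 for Icam1 and from 1.78e-07 to 0.675 for Vcam1, and the log2 fold change was positive in each setting, from 0.46 to 0.70 and from 0.28 to 0.51. Per length, Icam1 was at 13.2%, 9.72% and 10.4% of the FPKM of Vcam1 in the Ctrl shRNA samples and at 13.2%, 12.4% and 12.9% in the knockdown samples, so the ranges of this ratio overlapped. Of the 4309 stretches of 50 bases in annotated Icam1 transcripts, 565 (13.1%) also occurred in transcripts of other genes, against 0.465% for Vcam1, and how the counting treated reads with several matches is not given in the sources used here.

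**Figure D1:**
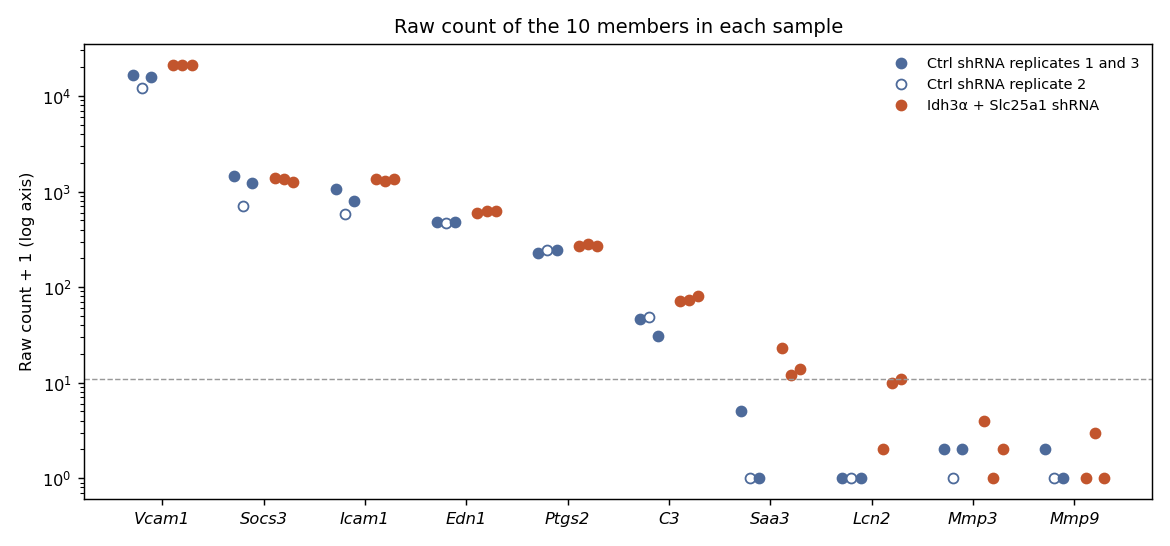
Raw count plus 1 (log axis) of each of the 10 genes in each sample, with Ctrl shRNA replicates 1 and 3 as filled blue circles, Ctrl shRNA replicate 2 as open blue circles and knockdown samples as red circles, and a dashed line at a count of 10. Vcam1 has at least 12245 counts in every sample, while Lcn2, Mmp3 and Mmp9 lie at or under 10 counts in all samples and Saa3 is over 10 counts in the 3 knockdown samples only.

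Socs3 (ENSMUSG00000053113, chr11:117966079-117970047, minus strand) encodes a feedback inhibitor of cytokine receptor signaling through gp130 and STAT3. Its raw counts were 1438, 712 and 1221 in the Ctrl shRNA samples and 1390, 1341 and 1251 in the knockdown samples. By CPM the values were 46.5, 36.0 and 42.6 against 46.7, 44.2 and 42.2. The groups overlapped on both scales, and Ctrl shRNA replicate 2 was the lowest sample on both. The means, 41.7 ± 5.26 CPM (SD, n = 3) and 44.4 ± 2.27 CPM (SD, n = 3), differed by less than the spread between samples, and without replicate 2 the Ctrl shRNA mean was 44.5 ± 2.75 CPM (SD, n = 2). The log2 fold change was 0.09 ± 0.11 with all libraries (edgeR adjusted p = 0.698) and turned to -0.01 ± 0.08 without Ctrl shRNA replicate 2 (edgeR adjusted p = 0.936).

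Ptgs2, the inducible cyclooxygenase that starts prostaglandin synthesis, and Edn1, the precursor of the vasoconstrictor peptide endothelin-1, are the secreted-mediator genes of the group. Ptgs2 (ENSMUSG00000032487, chr1:150100031-150108227, plus strand) had raw counts of 227, 246 and 242 against 268, 280 and 269, and CPM values of 7.33, 12.5 and 8.44 against 9.01, 9.23 and 9.07. By raw count every knockdown sample lay above every Ctrl shRNA sample, whereas by CPM Ctrl shRNA replicate 2 was the highest of all 6 and the groups overlapped. The mean was 9.41 ± 2.69 CPM (SD, n = 3) in the Ctrl shRNA group, 7.88 ± 0.781 CPM (SD, n = 2) without replicate 2, and 9.10 ± 0.115 CPM (SD, n = 3) in the knockdown group. The sign of the difference depended on that library, at -0.04 ± 0.21 (log2 fold change, edgeR adjusted p = 0.932) with it and 0.20 ± 0.12 (edgeR adjusted p = 0.399) without it, and was also positive, at 0.19, when libraries were scaled by total count alone. No setting called Ptgs2.

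Edn1 (ENSMUSG00000021367, chr13:42301476-42307990, plus strand) showed the same arrangement of samples. Raw counts were 484, 470 and 481 in the Ctrl shRNA samples and 589, 623 and 619 in the knockdown samples, and CPM values were 15.6, 23.8 and 16.8 against 19.8, 20.5 and 20.9. The raw counts of the groups did not overlap, and on the CPM scale Ctrl shRNA replicate 2 lay above all knockdown samples while replicates 1 and 3 lay below them. Means were 18.7 ± 4.42 CPM (SD, n = 3), or 16.2 ± 0.802 CPM (SD, n = 2) without replicate 2, against 20.4 ± 0.552 CPM (SD, n = 3). The log2 fold change was 0.13 ± 0.17 with all libraries (edgeR adjusted p = 0.726) and 0.32 ± 0.09, a 1.25-fold difference, without replicate 2 (edgeR adjusted p = 0.121). Neither passed. Edn1 passed in 1 of 18 settings, limma-voom with sample quality weights, which gives less weight to libraries that fit poorly (log2 fold change 0.28 ± 0.08, adjusted p = 0.0461, over the settings 0.0461 to 0.964).

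**Figure D2:**
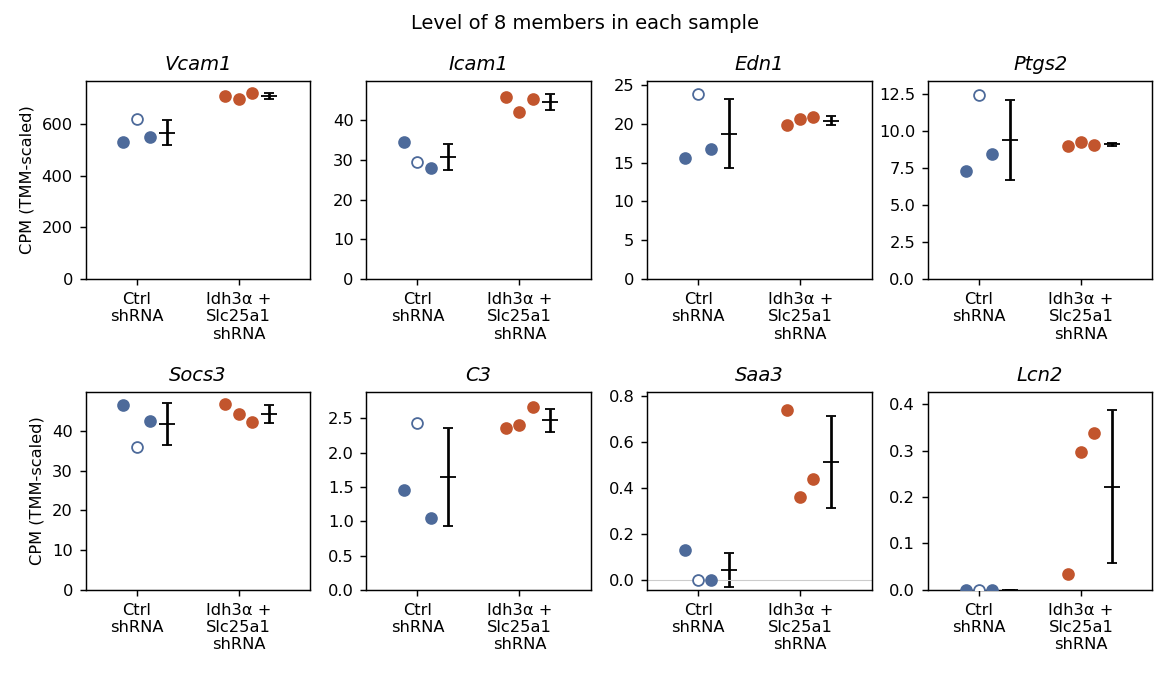
CPM (linear axis, scaled with TMM factors) of 8 of the genes in each sample, with Ctrl shRNA samples in blue (replicate 2 open), knockdown samples in red, and mean ± SD beside each group. The groups are apart for Vcam1, Icam1, Saa3 and Lcn2, and the open circle is the highest Ctrl shRNA sample for Vcam1, Edn1, Ptgs2 and C3.

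C3, Saa3 and Lcn2 encode secreted proteins of the innate immune response. C3 is the central component of the complement cascade, Saa3 is a serum amyloid A protein made outside the liver, and Lcn2 (lipocalin 2) binds bacterial siderophores. C3 (ENSMUSG00000024164, chr17:57203970-57228136, minus strand) had raw counts of 45, 48 and 30 in the Ctrl shRNA samples and 70, 73 and 79 in the knockdown samples, and CPM values of 1.45, 2.43 and 1.05 against 2.35, 2.41 and 2.66. The groups were apart by raw count, while by CPM Ctrl shRNA replicate 2 fell between the second and the highest knockdown value. Means were 1.64 ± 0.711 CPM (SD, n = 3), or 1.25 ± 0.288 CPM (SD, n = 2) without replicate 2, against 2.47 ± 0.166 CPM (SD, n = 3). The fitted difference was 1.52-fold with all libraries (log2 fold change 0.60 ± 0.34, edgeR adjusted p = 0.404) and 1.96-fold without replicate 2 (0.97 ± 0.25, edgeR adjusted p = 0.0981). It passed only with sample quality weights (1.12 ± 0.22, adjusted p = 0.0178, over 15 settings 0.0178 to 0.676). Summed over libraries, 123 counts against 222 gave a ratio of 1.60 per scaled library size, with a 95% exact interval of 1.28 to 2.01 that covers counting error only, and of 1.97 (1.51 to 2.59) without Ctrl shRNA replicate 2.

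Saa3 (ENSMUSG00000040026, chr7:46711998-46715700, minus strand) had raw counts of 4, 0 and 0 in the Ctrl shRNA samples and 22, 11 and 13 in the knockdown samples. The CPM values were 0.129, 0 and 0 against 0.739, 0.363 and 0.438, and the Ctrl shRNA mean was 0.043 CPM with replicate 2 and 0.065 CPM without it. All knockdown samples lay above all Ctrl shRNA samples, at a level reached by no Ctrl shRNA sample but still under 1 CPM. The summed counts of 4 and 46 gave a ratio of 10.2 per scaled library size (95% exact interval 3.71 to 38.9, counting error only), and of 7.64 without Ctrl shRNA replicate 2 (2.79 to 29.2). Saa3 entered the test only because of its knockdown counts. The fitted log2 fold change was 3.28 ± 1.00 with all libraries (edgeR unadjusted p = 0.0156, adjusted p = 0.322) and 2.86 ± 0.87 without replicate 2 (edgeR adjusted p = 0.138). It passed only with sample quality weights (4.53 ± 0.67, adjusted p = 0.00775, over 13 settings 0.00775 to 0.675), and DESeq2 gave it no adjusted p. Without Ctrl shRNA replicate 1, which held all 4 Ctrl shRNA counts, its fitted value was 6.84 and depends on the prior count. Of its 50-base stretches, 4.15% also occurred in other transcripts, some of them of its paralog Saa1, which had 1 count over all samples.

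Lcn2 (ENSMUSG00000026822, chr2:32384633-32388252, minus strand) had 0 counts in all 3 Ctrl shRNA samples and 1, 9 and 10 counts in the knockdown samples, or 0.034, 0.297 and 0.337 CPM. The groups did not overlap, though knockdown replicate 1 lay 1 count above the Ctrl shRNA samples. With a floor of 3 counts over the Ctrl shRNA group, the 20 knockdown counts gave a ratio of 5.90 per scaled library size. Without Ctrl shRNA replicate 2 the ratio was 4.43. Both ratios bound the Ctrl shRNA count alone and take the knockdown counts as exact, so the true ratio may be lower. The count filter left Lcn2 out of the test, and with no filter its adjusted p was 0.472 in edgeR. A count of 0 allows up to those 3 counts, so its absence from the Ctrl shRNA samples cannot be stated at this depth.

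Mmp3 and Mmp9 encode stromelysin-1 and gelatinase B, secreted proteases that cleave extracellular matrix. Mmp3 (ENSMUSG00000043613, chr9:7445822-7455975, plus strand) had 1, 0 and 1 counts in the Ctrl shRNA samples and 3, 0 and 1 in the knockdown samples. Mmp9 (ENSMUSG00000017737, chr2:164940780-164955850, plus strand) had 1, 0 and 0 counts against 0, 2 and 0. Both were at the limit of detection in every sample, the groups overlapped, and the ratios of the summed counts per scaled library size could not be told from 1 at this depth (1.77, 95% exact interval 0.254 to 19.6 for Mmp3, and 1.77, 0.0921 to 104 for Mmp9). Without Ctrl shRNA replicate 2 both ratios were 1.33 (0.190 to 14.7 for Mmp3 and 0.0692 to 78.4 for Mmp9). Neither passed the count filter, with or without Ctrl shRNA replicate 2.

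Counted over the 10 genes, 7 could be tested and 0 passed in either direction in edgeR with all 6 libraries (adjusted p under 0.05), where 0.0588% of the 15307 genes tested passed as higher and 0.00653% as lower. At an unadjusted p under 0.05, 3 were higher (Icam1, Vcam1 and Saa3) against 7.47% of all genes, and 0 were lower, against 6.65%. Without Ctrl shRNA replicate 2, edgeR called 1 of the 7, Vcam1, as higher, against 1.11% of 15709 genes, and 0 as lower, against 0.675%. DESeq2 called 1 (Icam1) against 1.73% with all libraries and 2 (Icam1 and Vcam1) against 3.46% without replicate 2, and limma-voom with sample quality weights called 5 (Icam1, Vcam1, Edn1, C3 and Saa3) against 8.67%. None of the 18 settings called any of the 10 as lower, a call that 1.25% of genes had in DESeq2, 2.44% in DESeq2 without replicate 2 and 6.34% with sample quality weights. The median log2 fold change of the 7 was 0.32, beside -0.01 over all genes tested, and 0.38 beside -0.02 without replicate 2. Since Saa3 was among the 7 only through its knockdown counts, these counts and medians describe the tested genes alone. The spread shared by all genes also differed with Ctrl shRNA replicate 2, at a biological coefficient of variation of 0.263 with it and 0.102 without it.

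By CPM, every knockdown sample lay above every Ctrl shRNA sample for 4 of the 10 genes, Icam1, Vcam1, Lcn2 and Saa3. Of the tested genes these are 3 of 7, Saa3 included, which was tested only through its high knockdown counts, so that nothing is read from the tally of tested genes here or in the next sentences. Of all genes tested, 14.7% had this arrangement and 10.7% the opposite one, which none of the 10 showed. Without Ctrl shRNA replicate 2 the number was 7 of 10, with Ptgs2, Edn1 and C3 added, or 6 of 7 tested, against 20.4% of all genes, and 0 showed the opposite arrangement, against 17.5%. CPM of the total count, with no TMM factor, also gave 7 of 10 with all 6 libraries, 6 of them tested, against 17.4% of all genes, and 0 in the opposite arrangement, against 5.51%. This last scaling shifted the median log2 fold change of all genes to 0.16, so differences on it are to be read against that value. Relative to it, Icam1 (0.70), Vcam1 (0.51), C3 (0.85), Edn1 (0.35) and Saa3 (3.41) lay above the median gene, and Ptgs2 (0.19) and Socs3 (0.24) were within 0.1 of it. With 3 samples against 3 an exact permutation test, two-sided, cannot give a p under 0.1, and it gave 0.1 for the 4 genes with no overlap.

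**Figure D3:**
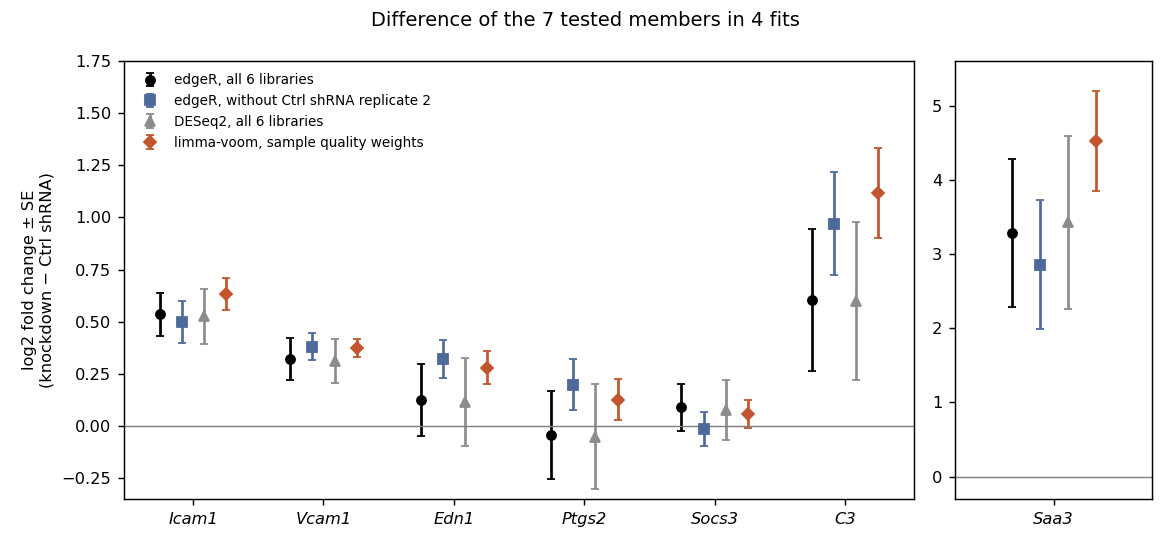
log2 fold change (knockdown against Ctrl shRNA) ± SE of the 7 tested genes in 4 fits, with Saa3 on an axis of its own. Icam1, Vcam1, Edn1, C3 and Saa3 are above 0 in all 4 fits, Ptgs2 is at -0.04 with all libraries and 0.20 without Ctrl shRNA replicate 2 in edgeR, and Socs3 is near 0 in all 4.

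Levels of different genes were compared per length, as mean FPKM. In the Ctrl shRNA group the order was Vcam1 (63.9 ± 4.83), Socs3 (14.5 ± 1.93), Edn1 (8.77 ± 1.99), Icam1 (7.06 ± 0.780), Ptgs2 (2.06 ± 0.570), C3 (0.319 ± 0.135), Saa3 (0.017 ± 0.029) and Mmp3 (0.013 ± 0.011), each with SD and n = 3. Mmp9 was at 0.003 and Lcn2 was listed at 0. In the knockdown group Icam1 (10.2 ± 0.473) came before Edn1 (9.56 ± 0.261), and Lcn2 (0.085 ± 0.063) came before Mmp3 (0.025 ± 0.029), while Vcam1 (79.9 ± 1.39), Socs3 (15.4 ± 0.782), Ptgs2 (1.99 ± 0.024), C3 (0.482 ± 0.033) and Saa3 (0.198 ± 0.077) kept their places. Icam1 and Edn1 thus changed places, as did Lcn2 with Mmp3 and Mmp9, which are at or near the limit of detection. The samples of Icam1 and Edn1 overlapped in both groups, with Icam1 at 7.95, 6.74 and 6.49 FPKM and Edn1 at 7.36, 11.04 and 7.91 FPKM in the Ctrl shRNA samples, and Icam1 at 10.6, 9.70 and 10.4 FPKM and Edn1 at 9.28, 9.62 and 9.79 FPKM in the knockdown samples. Without Ctrl shRNA replicate 2 their Ctrl shRNA means were 7.22 ± 1.03 and 7.63 ± 0.389 FPKM (SD, n = 2), in the same order as with it. Vcam1 ranked 806, 1107 and 874 by FPKM among all genes in the Ctrl shRNA samples and 582, 549 and 544 in the knockdown samples. In percentiles of mean FPKM over the genes tested, Vcam1 stood at 93.7 and 96.3 in the Ctrl shRNA and knockdown groups, Icam1 at 55.9 and 65.5, and C3 at 10.6 and 14.8. The 10 genes together took 0.0689%, 0.0515% and 0.0679% of the counts of the Ctrl shRNA samples and 0.0885%, 0.0878% and 0.0897% of those of the knockdown samples.

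The genes whose log2 CPM followed that of Vcam1 most closely over the 6 samples were Plaur, the urokinase receptor (Pearson r = 0.998), Eif4g2, a translation initiation factor (0.996), and Mir17hg, the host gene of a microRNA cluster (0.995). They share the libraries and the group difference with Vcam1, and 42 genes reached an r of at least 0.95. Plaur was at 6.16 ± 1.11 CPM (SD, n = 3) in the Ctrl shRNA group and 10.1 ± 0.519 CPM in the knockdown group.

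Genes that work with the 10 were followed in 8 lists, of 179 genes in all, of which 114 were tested. None of the first 7 lists described here, on adhesion, prostaglandins, endothelin, SOCS and gp130-STAT3 signaling, metalloproteinases, complement and the acute phase, held a gene that passed in edgeR with all 6 libraries. At an unadjusted p under 0.05 in that fit, 7.47% of all genes tested were higher and 6.65% lower. Higher and lower genes were 2 and 0 of 14 tested for adhesion, 2 and 1 of 11 for prostaglandins and 0 and 0 of 4 for endothelin. They were 6 and 2 of 23 for SOCS and gp130-STAT3 signaling and 2 and 3 of 13 for metalloproteinases. For complement they were 2 and 1 of 12, and for the acute phase 3 and 1 of 7. In DESeq2, which tested the same genes, 7 of them were higher and 1 was lower, against 1.73% and 1.25% of all genes. Values of single genes below come from the edgeR fit without replicate 2 unless stated otherwise. Without Ctrl shRNA replicate 2, 1 of the 14 tested adhesion genes rose, where 1.11% of all genes tested rose and 0.675% fell, shares that also stand beside the counts of the next 6 lists. This was Cd44, the hyaluronan receptor, with 54.5, 51.2 and 48.3 CPM in the Ctrl shRNA samples and 79.5, 91.6 and 80.7 CPM in the knockdown samples (log2 fold change 0.70 ± 0.09, edgeR adjusted p = 0.0142). The most abundant adhesion genes, Itgb1, a β1 integrin chain, and Ezr, the membrane-cytoskeleton linker ezrin, had log2 fold changes of -0.04 and -0.04, and with all 6 libraries Ezr was at 0.01 and Itgb1 closer still to 0. The list's median was 0.12 with all libraries and 0.03 without replicate 2.

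Of 11 tested prostaglandin genes, 1 rose without Ctrl shRNA replicate 2, the prostaglandin transporter gene Slco2a1 (0.55 ± 0.11, edgeR adjusted p = 0.0497). By mean FPKM over all samples Ptges3 and Ptgr1 were the most abundant, though in the knockdown group Slco2a1 (11.7 FPKM) lay above Ptgr1 (9.13 FPKM). Without Ctrl shRNA replicate 2, Ptges3 and Ptgr1 were at 0.07 and -0.38, but at -0.38 and -0.60 with all 6 libraries, so the sign of Ptges3 turned with that library. The medians of the list were 0.14 and 0.16 with and without that library. None of the 4 tested endothelin genes passed in edgeR without Ctrl shRNA replicate 2, or at an unadjusted p under 0.05, or in DESeq2 with all libraries. Ece1, which cleaves the endothelin precursor, was at -0.01 ± 0.07 and Edn2 at 0.50 ± 0.58, while with all 6 libraries they were at 0.05 ± 0.09 and 1.00 ± 0.90. The median was 0.07 with all libraries and -0.17 without replicate 2. Of 23 tested SOCS and gp130-STAT3 genes, 3 rose without replicate 2. They were Bcl3, a nuclear IκB protein (8.50, 6.93 and 7.98 CPM against 14.9, 19.2 and 14.9 CPM, log2 fold change 0.98 ± 0.15, edgeR adjusted p = 0.0180), Cish, a SOCS family member (0.67 ± 0.12, adjusted p = 0.0325), and Lif, a ligand of gp130 receptors (0.51 ± 0.08, adjusted p = 0.0177). Stat3 itself was at -0.02 ± 0.07 (0.09 ± 0.11 with all 6 libraries) and Cebpb at -0.43 ± 0.12 (edgeR adjusted p = 0.122), the latter encoding the factor C/EBPβ. The median of that list was 0.08 with all libraries and 0.02 without replicate 2.

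Of 13 tested metalloproteinase and inhibitor genes, 1 fell and 0 rose without replicate 2. Mmp17, a membrane-anchored metalloproteinase, fell from 64.2, 52.2 and 56.7 CPM to 41.5, 42.3 and 39.6 CPM (-0.56 ± 0.08, edgeR adjusted p = 0.0165). Bsg, an inducer of metalloproteinases, and Timp2, an inhibitor of them, were the most abundant and were at -0.10 and -0.05 (-0.04 and 0.01 with all 6 libraries), and the median of the list was -0.10 in both fits. Of 12 tested complement genes, 1 rose, C1s1, a protease of the C1 complex, at 0.129, 0 and 0.174 CPM against 1.08, 0.791 and 0.809 CPM (2.52 ± 0.48, edgeR adjusted p = 0.0432). With 4, 0 and 5 counts in the Ctrl shRNA samples and 32, 24 and 24 in the knockdown samples, C1s1 entered the test only through the knockdown group, and DESeq2 gave it no adjusted p. The list's median was 0.33 with all libraries and 0.36 without replicate 2. Cfp and Masp1, the most abundant complement genes, were at 0.12 and -0.24 (0.22 and -0.26 with all 6 libraries). Of 7 tested acute-phase genes, 1 rose, Cp, the copper carrier ceruloplasmin (0.37 ± 0.07, edgeR adjusted p = 0.0386), and Lbp, which binds lipopolysaccharide, was at 0.21 ± 0.07 (adjusted p = 0.152). The acute-phase medians were 0.10 and 0.21 with and without replicate 2.

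The eighth list held 37 further NF-κB targets, and its leading genes were already known from earlier results of these data. Of 30 tested, 5 rose with all 6 libraries, namely the feedback inhibitors Nfkbia, Nfkbie and Tnfaip3, the regulator Nfkbiz and the growth factor Csf1, and 13 rose without replicate 2, against 0.0588% and 1.11% of all genes tested. Their log2 fold changes with all libraries were 0.94 ± 0.08 for Nfkbia (edgeR adjusted p = 0.0273), 1.26 ± 0.10 for Nfkbie (0.0249), 1.87 ± 0.10 for Tnfaip3 (0.0116), 2.09 ± 0.17 for Nfkbiz (0.0249) and 1.17 ± 0.09 for Csf1 (0.0249). In the fit without replicate 2 the largest among the genes called were the chemokine genes Cxcl1 (3.16 ± 0.18) and Ccl2 (2.92 ± 0.17), both with adjusted p = 0.00021. Neither passed with all 6 libraries, where Cxcl1 was at 2.71 ± 0.37 (edgeR adjusted p = 0.111) and Ccl2 at 2.02 ± 0.55 (adjusted p = 0.296). Without Ctrl shRNA replicate 2, Nfkb2 and Tapbp, the most abundant genes of the list, were at 0.66 ± 0.07 (edgeR adjusted p = 0.00582) and 0.26 ± 0.07 (adjusted p = 0.121). With all 6 libraries they were at 0.73 ± 0.09 (edgeR adjusted p = 0.104) and 0.35 ± 0.11 (adjusted p = 0.316). The median of this list was 0.70 with all libraries and 0.65 without replicate 2, while the 7 tested genes among the 10 had medians of 0.32 and 0.38. All 5 genes named first lay above Icam1 and Vcam1 in log2 fold change in both fits. They were named because they passed with all 6 libraries, which Icam1 and Vcam1 did not, so this order follows in part from the choice. Tapbp, at 0.26, lay below both genes without Ctrl shRNA replicate 2.

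**Figure D4:**
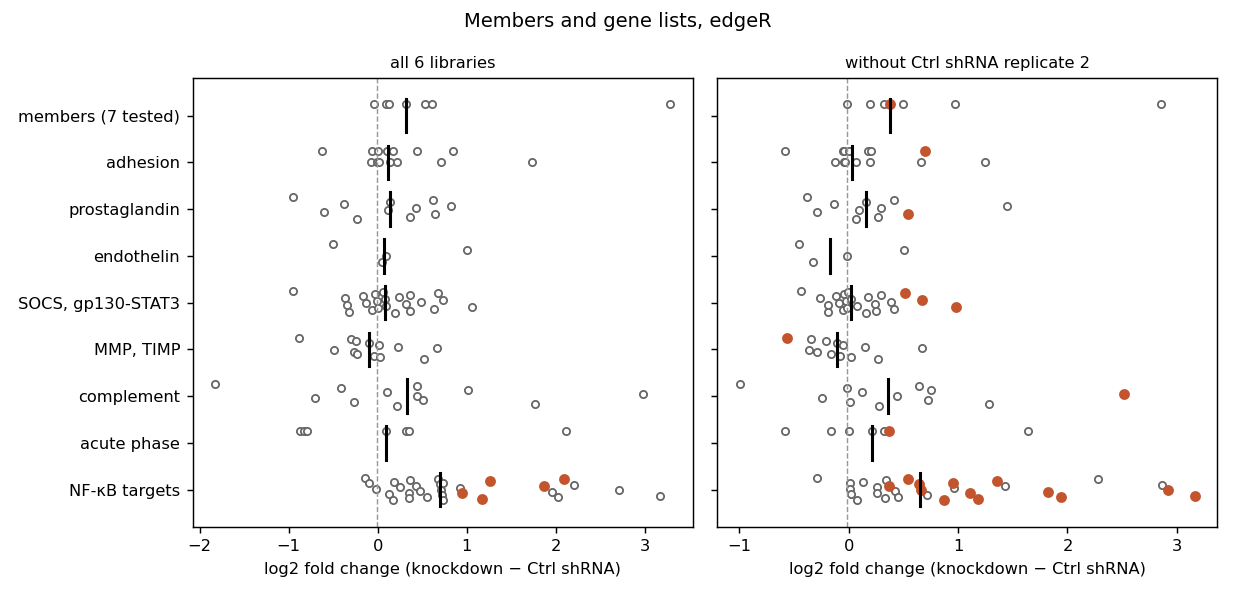
log2 fold change of each tested gene of the 10 and of 8 gene lists in edgeR, with all 6 libraries on the left and without Ctrl shRNA replicate 2 on the right. Filled red circles passed an adjusted p under 0.05, black bars are list medians and the dashed line is the median of all genes tested, and the NF-κB target list has the highest median in both panels (0.70 and 0.65).

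Markers of other cell types were read beside these genes because Vcam1, Icam1 and Edn1 are also made by endothelial cells and fibroblasts, and Lcn2 and Mmp9 by leukocytes. Of 11 macrophage and other leukocyte markers, 7 had no count in any sample, among them Ptprc, Itgam, Ly6g and S100a8, and their summed level, mostly from Cd14, was 5.49 to 10.1 CPM in the Ctrl shRNA samples and 6.86 to 7.42 CPM in the knockdown samples. Within this list Cd68 was at 1.65 to 1.92 CPM in the Ctrl shRNA samples and 2.34 to 2.73 CPM in the knockdown samples, which did not overlap. Of 7 endothelial markers, Erg had no count and Cdh5 had at most 1 in any sample, and the sum, nearly all from Tek, was 37.1 to 46.8 CPM against 32.5 to 33.9 CPM. Of 7 fibroblast markers, Col3a1 had no count, and the sum was 346 to 1234 CPM against 317 to 345 CPM, with the highest value, nearly all Dcn, in Ctrl shRNA replicate 2. Within it Pdgfra was at 2.23 to 2.68 CPM against 3.43 to 3.91 CPM, again with no overlap. Dcn and Tek were lower in each knockdown sample. Dcn was at 320, 1211 and 354 CPM against 297, 318 and 300 CPM. Tek was at 37.5, 45.8 and 36.0 CPM against 31.5, 32.3 and 31.9 CPM. Of all genes tested, 14.7% were higher in each knockdown sample and 10.7% lower. The part of Cd68, Pdgfra, Dcn and Tek, picked here after their values were seen, in the differences of Vcam1, Icam1 and the other genes was not tested. The part of the composition of Ctrl shRNA replicate 2 in the values of Vcam1, Ptgs2, Edn1 and C3 was not tested. Since these are bulk samples, more cells with a transcript and more transcript per cell cannot be told apart.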

How the data were processed

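The RNA-seq libraries of MLE12 cells, 3 for Ctrl shRNA and 3 for the double knockdown, were grouped by their sample titles. The authors deposited counts of reads per gene, whole numbers without normalization, and FPKM values, which are scaled to gene length and to a library size of 0.716 (Ctrl shRNA replicate 2) to 1.08 times the total count. The submitters' processing notes name HISAT2 2.0.5, StringTie 1.3.3b, featureCounts 1.5.0-p3 and mm10, with no role for each, and the labels also name a Trinity assembly. The use of strand is not given in the sources used here. Antisense genes overlapping Icam1, Vcam1 and Edn1 held 15, 9 and 23 counts in total. Gene coordinates were those of GENCODE M21 on GRCm38 for all 10 genes.

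Genes with few counts were removed with filterByExpr (minimum count 10), and the whole table was then fitted in edgeR 4.0.16 with TMM scaling and a quasi-likelihood F-test, with Benjamini-Hochberg adjustment over the 15307 genes tested. CPM values use the same TMM factors with and without Ctrl shRNA replicate 2. Low genes have their summed counts compared, with 95% exact intervals or a floor of 3 counts over the group. Total counts were close in all samples. Likeness to Vcam1 was Pearson's r of log2(CPM + 0.5). The alternatives were DESeq2 1.42.0, limma 3.58.1 (voom with sample quality weights, and log2(FPKM + 1) or log2(FPKM + 0.1)), other scalings and filters, a replicate block and each library left out. The fits were also run on simulated counts in which every library had the same spread. In the data Ctrl shRNA replicate 2 stands apart, so the simulation cannot show how many of the calls given here are false, and nothing is read from it. The text names the 10 genes, both targets, the 3 genes most like Vcam1, and of each list those called with all libraries, the 3 largest called without Ctrl shRNA replicate 2 and the 2 with the highest mean FPKM. The 10 genes, the lists and the tests were chosen with earlier results of these data known. The promoter search with the relaxed κB motif and the overlap of CPM of the total count were added after seeing the data.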

Additional observations from a re-analysis of the deposited data

How the results depend on the processing

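Of the 114 differences of the 7 tested genes recomputed under 17 alternatives, 96 kept their direction and side of the threshold, 3 kept the direction and had no adjusted p (Saa3 in DESeq2 with and without Ctrl shRNA replicate 2, and C3 in DESeq2 without it), 9 kept the direction and passed, and 6 changed sign. Ptgs2, at -0.04, turned to 0.19 with library size only, 0.20 without Ctrl shRNA replicate 2, 0.20 in DESeq2 without that library and 0.13 with sample quality weights. Socs3, at 0.09, turned to -0.015 without Ctrl shRNA replicate 2 in edgeR and to -0.010 in DESeq2. With each library left out in turn, Ptgs2 ranged from -0.19 to 0.20 and Socs3 from -0.015 to 0.18. The number of the 10 genes called higher, 0 in the reported fit, was 1 in DESeq2, 2 in DESeq2 without Ctrl shRNA replicate 2, 5 with sample quality weights and 0 to 1 when each library was left out, with 1 only without Ctrl shRNA replicate 2. Over all genes, the 9 higher and 1 lower became 1 and 0 with library size only, 12 and 3 with no count filter, 265 and 192 in DESeq2, 543 and 383 in DESeq2 without that library, 1327 and 971 with sample quality weights, and 8 and 3 in limma on log2(FPKM + 1) or log2(FPKM + 0.1). Leaving out each library gave 0 to 175 higher and 0 to 106 lower, the highest without Ctrl shRNA replicate 2. Over the 8 lists, the 5 higher and 0 lower became 1 and 0 with library size only, 23 and 1 in DESeq2, 30 and 4 in DESeq2 without that library, 42 and 6 with sample quality weights, 3 higher in limma on log2(FPKM + 1) with no filter, and 0 to 20 higher and 0 to 1 lower when each library was left out. The replicate numbers did not pair the samples (correlations of same-numbered deviations -0.155, -0.0920 and 0.0430), and with the replicate block 0 genes were called over all genes, over the lists and among the 10. The cause of these shifts was not tested. Mmp3, Mmp9 and Lcn2 were tested only where no filter was set, did not pass there, and depth limits what their counts can show.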

Other observations

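Relatives and partners of the 10 genes were read from the lists, and the genes named here were chosen after their values were seen. Among other adhesion ligands, Sele had 2 counts, Selp 7, Icam2 8, Madcam1 74, Jam2 261, Icam5 626, Jam3 1798, Alcam 18106 and F11r 36784 over all 6 samples, beside 107791 for Vcam1 and 6449 for Icam1. Madcam1 was at 0.126 FPKM in the Ctrl shRNA group and 0.450 FPKM in the knockdown group (log2 fold change 1.73 ± 0.81, edgeR adjusted p = 0.366, and 1.24 ± 0.50, adjusted p = 0.217 without Ctrl shRNA replicate 2). With all 6 libraries its Ctrl shRNA counts alone would not have passed the count filter, so nothing is read from its fitted difference. Among integrin chains that bind Icam1 or Vcam1, Itgal had 14 counts, Itgb2 had 6, Itga4 had 72, Itgb7 had 57 and Itgb1, which pairs with many other α chains, had 203694. For the mediators, Ptges, the inducible prostaglandin E synthase, had 8 counts beside 1532 for Ptgs2, and the endothelin receptor genes Ednra and Ednrb had 0 beside 3266 for Edn1.

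The same held for several acute-phase relatives, with 1 count for Saa1, 2 for Saa2, 10 for Hp and 12 for the complement factor Cfb, beside 50 for Saa3 and 345 for C3. Mmp10, the closest relative of Mmp3, had 7 counts. Orm1, another acute-phase gene, had 1559 counts and a log2 fold change of -0.79 ± 0.62 with all libraries (edgeR adjusted p = 0.526) and 0.32 ± 0.14 without Ctrl shRNA replicate 2 (edgeR adjusted p = 0.245), so its sign turned with that library.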
